A study of Mus musculus with 14 samples.

Results

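The liver response to tunicamycin that remains without PERK was measured on 7 of the 14 arrays of the series. These were 4 arrays of lsPERK liver taken 6 h after 1 mg/kg tunicamycin and 3 arrays of lsPERK liver given 0.3% DMSO as the vehicle, and they were chosen by their titles alone. lsPERK is the knock-out genotype of the series. The remaining 7 arrays were of wild-type (WT) mouse liver, 4 after the same dose and time of tunicamycin and 3 with DMSO, and gave the reference response. No collection time is given for DMSO livers, and any time effect cannot be told apart from the treatment. Strain, sex and age of the mice, the deleted exons and the driver of the deletion are not stated in the labels. Whether each replicate was its own animal is not stated either, and the p-values therefore describe the spread between these samples, which may be technical.

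Tunicamycin blocks the enzyme that starts the assembly of N-linked glycans, and proteins of the secretory pathway then fail to fold in the endoplasmic reticulum (ER). The unfolded protein response reports this to the nucleus through the membrane sensors PERK, IRE1 and ATF6. PERK phosphorylates eIF2, which slows protein synthesis and favours translation of the transcription factor ATF4. IRE1 splices the mRNA of XBP1, and ATF6 is cut in the Golgi to release a transcription factor. XBP1 and ATF6 raise ER chaperones and degradation factors, and hepatocytes depend on them because they secrete most plasma proteins.

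PERK itself is encoded by Eif2ak3. Its normalized signal was 157, 137 and 127 in lsPERK control liver and 316, 302, 239 and 275 after tunicamycin. All treated arrays lay above all control arrays. The rise was 2.02-fold (log2 1.01, SE 0.19, limma adjusted p = 0.00283), and with the values as deposited the adjusted p was 0.0596. In WT liver the gene went from 240, 443 and 362 to 1767, 2420, 1725 and 1755, and the log2 response in lsPERK minus that in WT liver was −1.48 (limma adjusted p = 0.00226). Since the removed exons are not stated, it is not known whether these probes lie inside them, and probes elsewhere in the gene could not check the genotype.

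Over all genes, the lsPERK arrays correlated at r = 0.947 to 0.972 among controls, at 0.960 to 0.980 among treated arrays and at 0.933 to 0.958 between the groups. Xist, the RNA of the inactive X chromosome of females, gave signals of 7878 to 9297 on replicates 1 and 2 of both lsPERK groups. On the other 3 lsPERK arrays it was at most 56.1, so arrays with and without Xist stand in both groups. The Y-linked Eif2s3y read at most 14.1 on the lsPERK arrays with Xist and 677 to 1027 on those without. By these genes both lsPERK groups hold female and male samples. Among WT arrays, only tunicamycin replicate 2 (9051) and control replicate 1 (8225) had high Xist signal. RNA integrity, read as log2 of β-actin signal at the 3′ over the 5′ end, was 0.58 to 1.04 in lsPERK controls and 0.59 to 0.78 after tunicamycin. The 7 measured hepatocyte markers summed to a signal of 90789 to 97824 in controls and 94213 to 99370 after tunicamycin, with 1 called, lower. Of the marker lists of other liver and blood cells, the 8 measured macrophage genes had none called, with sums of 6768 to 19117 in controls and 6939 to 10643 after tunicamycin, and the 3 cholangiocyte genes had 1 called, with sums of 101.8 to 126.5 and 153.4 to 270.1. In limma no measured marker of sinusoidal endothelium, stellate cells, neutrophils, lymphocytes, red cells or dividing cells was called, although 5 of 34 had an unadjusted p under 0.05 and the dividing-cell sum was 362 to 505 in controls and 567 to 837 after tunicamycin. The part of these cells in the results was not tested. In bulk liver, fewer cells of a type and less RNA per cell cannot be told apart.

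Tunicamycin changed 1897 of 12085 genes in lsPERK liver at a Benjamini-Hochberg adjusted p under 0.05 in limma. The 1018 genes called higher were 8.42% of the genes tested and the 879 called lower were 7.27%. Of these, 274 were at least 2-fold higher and 218 at least 2-fold lower. The control and treated arrays did not overlap for 987 of the genes called higher and 841 of those called lower. A lack of overlap is thus common to most called genes and adds no support to a call. The median of all genes was log2 −0.02, and the lists below can be read against it and against the shares of 8.42% and 7.27%. With each replicate number as a block within a genotype the count was 976, and without lsPERK control replicate 2 it was 1124. Values as deposited gave 695 calls, and centring each array on its median gave 1511, of which 71.7% were higher, against 53.7% of the 1897.

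Most of the genes that moved without PERK also moved in WT liver. WT liver had 2496 genes called higher, 20.7% of those tested, and 3146 called lower, 26% of those tested. Of the 1018 genes higher in lsPERK liver, 773 (75.9%) were also called higher in WT liver, and these made up 31.0% of the WT rises. Of the 879 genes lower in lsPERK liver, 636 (72.4%) were also called lower in WT liver, and these made up 20.2% of the WT falls. The median size of the change over the genes called higher was log2 0.72 in lsPERK and 0.94 in WT liver, and over those called lower it was 0.68 and 0.80. In the other direction stood 44 genes that rose in lsPERK and fell in WT liver and 37 that fell in lsPERK and rose in WT liver. Over all genes the responses had a Pearson r of 0.52, a description across genes, which are not independent replicates.

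The test of the difference between responses called 1232 genes (10.2%) with a higher and 1169 (9.67%) with a lower log2 change in lsPERK than in WT liver. As deposited these counts were 129 and 1772, and after centring each array on its median 659 and 1190. The WT response had 3632 genes called higher and 705 lower as deposited, and 3014 and 1953 after centring. The median difference over all genes also moved with the scaling: it was 0.08 as normalized here, −0.42 as deposited and −0.01 after median centring, and the WT response had medians of −0.13, 0.30 and 0.01. The lsPERK response had medians of −0.02, −0.07 and 0.05.

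**Figure D1:**
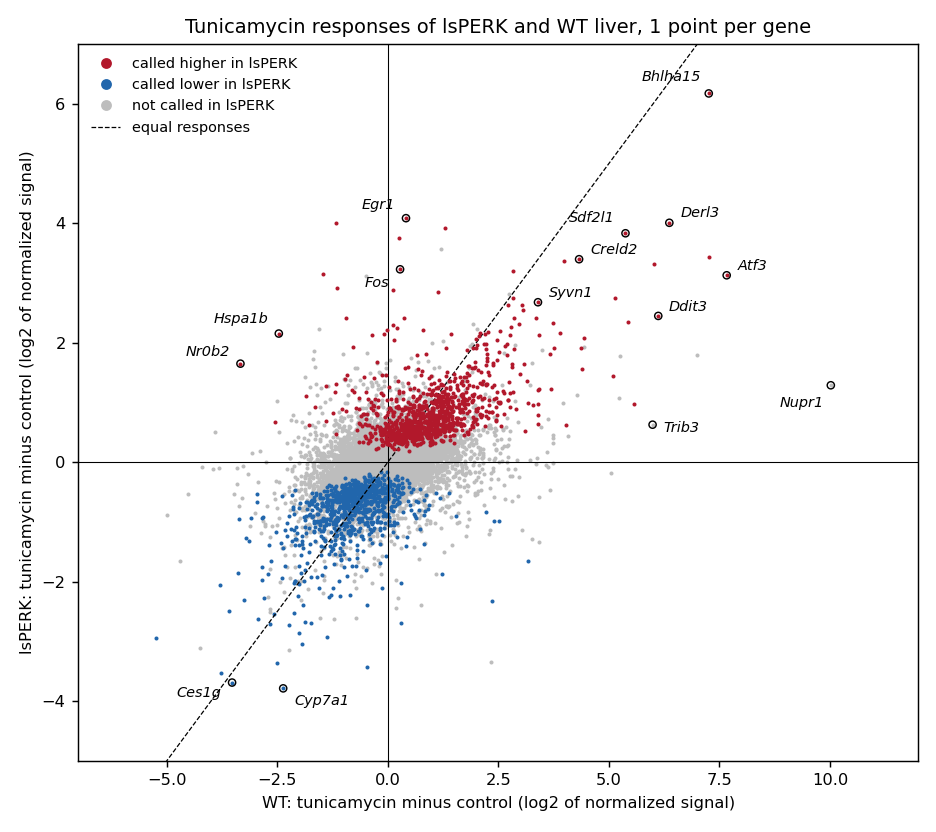
Log2 change after tunicamycin in lsPERK liver (vertical axis) against that in WT liver (horizontal axis) for the 12085 genes tested, with genes called higher in lsPERK liver in red, those called lower in blue, the others in grey and the dashed line at equal responses. Bhlha15, Derl3, Sdf2l1, Creld2 and Syvn1 lie high on both axes, Trib3 and Nupr1 lie high in WT liver only and are not called in lsPERK liver by the probe set used, and Egr1, Fos, Hspa1b and Nr0b2 are called higher in lsPERK liver and not in WT liver, with Egr1 called there as deposited. The positions of Bhlha15 and Nupr1 rest on control signal below the filter threshold of 41.5.

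Most sensors and transcription factors of the unfolded protein response rose. Of 12 measured genes, 8 were called higher and none lower, with a median of log2 0.82 in lsPERK and 1.26 in WT liver. The largest change was in Bhlha15 (MIST1), a transcription factor of secretory cells. Its signal was 13.3, 21.2 and 5.67 in control and 861, 933, 799 and 788 after tunicamycin. The control arrays all lay under the filter threshold of 41.5, so the rise is given as at least 20.3-fold (limma adjusted p = 1.43e-07). The WT controls lay below the threshold as well, and the test did not call a difference of responses (adjusted p = 0.15). The other kept probe set of Bhlha15, with an lsPERK control mean also below the threshold, was not called in lsPERK liver (limma adjusted p = 0.1555 over all kept probe sets).

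Atf6, the Golgi-cleaved sensor, read 866, 1557 and 1180 in control and 2384, 2529, 2247 and 2268 after tunicamycin. The groups did not overlap, and the rise was 2.02-fold (log2 1.01, SE 0.17, adjusted p = 0.00109). The WT change was log2 1.21, and the difference of −0.19 did not pass the test (adjusted p = 0.633). Its relative Atf6b rose by log2 1.09 and the related factor Creb3l2 by 1.04. Wfs1, an ER membrane protein that restrains ATF6 signalling, rose by log2 1.66. Ern1, which encodes IRE1, rose 1.55-fold (log2 0.63, adjusted p = 0.00356), with a difference from the WT response of −0.68 (adjusted p = 0.0151), and its own call was lost with the values as deposited (adjusted p = 0.0711).

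Xbp1, the target of IRE1, was not called by any of its 4 kept probe sets (log2 −0.03 to 0.10). Spliced and unspliced Xbp1 mRNA were not measured apart, so these values do not show whether IRE1 was active. The Xbp1 signal used here read 8504, 9047 and 10381 in control and 8358, 8921, 10448 and 8764 after tunicamycin. The groups overlapped throughout, and the log2 change was −0.03 (SE 0.09, adjusted p = 0.882). In WT liver it rose by log2 0.63, and the difference of −0.66 passed the test (adjusted p = 0.00378), though not after median centring (−0.42, adjusted p = 0.194). Mbtps1, the protease that makes the first cut in ATF6, changed by log2 −0.07 (adjusted p = 0.819).

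Most ER chaperones rose. Of 21 measured genes, 16 were called higher and none lower, and the list median was log2 0.97 in lsPERK and 1.09 in WT liver. Sdf2l1, a partner of the chaperone BiP, read 208, 97.8 and 156 in control and 2530, 2339, 1481 and 2185 after tunicamycin, a 14.2-fold rise (log2 3.83, SE 0.24, adjusted p = 2.49e-07). Creld2, an ER stress-induced secreted factor, read 893, 856 and 933 and then 10027, 9590, 8089 and 10089, a 10.5-fold rise (log2 3.40, SE 0.10, adjusted p = 1.07e-10). For both genes the lowest treated array was several times the highest control array.

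BiP itself, encoded by Hspa5, read 8121, 8921 and 9503 in control and 17989, 17949, 18013 and 17770 after tunicamycin. The treated arrays were nearly equal to each other and none overlapped the controls. Quantile normalization gives every array the same set of values, so this closeness is no measure of precision. The rise was 2.03-fold (log2 1.02, SE 0.08, adjusted p = 1.67e-06), and the WT change was log2 1.26. The 3 kept probe sets of Hspa5 ranged from log2 0.10 to 1.28, with 2 of them called, so the size depends on the probe set. The BiP co-chaperones Dnajb9, Dnajb11 and Dnajc3 rose by log2 1.58, 1.79 and 1.01, the BiP nucleotide exchange factor Hyou1 by 1.63, the stress-induced Hspa13 by 2.14 and the secreted survival factor Manf by 1.94. Smaller rises by the probe sets used were those of the already abundant Hsp90b1 (GRP94, log2 0.55) and of the lectin chaperones Calr (0.50) and Canx (0.33, adjusted p = 0.0354). The other kept probe set of Hsp90b1 rose by log2 1.19 (limma adjusted p = 1.8e-05 over all kept probe sets), so the size of that rise depends on the probe set. The call of Canx was lost when any of 6 lsPERK arrays was left out (log2 0.30 to 0.38, adjusted p 0.0519 to 0.110). Among 7 list members with a lower log2 response than in WT liver were Sdf2l1 (difference −1.54), Creld2 (−0.93), Dnajb11 (−0.90), Manf (−0.71), Dnajc3 (−0.70) and Hsp90b1 (−0.53). Hsp90b1, Manf and Dnajc3 lost that call after median centring.

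Some of these genes share a promoter sequence, the ER stress element, which ATF6 binds together with NF-Y. RefSeq promoters on GRCm38.p6, from 250 bases before to 50 after each annotated start, were found for 9754 of the 12085 genes and searched on both strands for CCAAT, 9 bases of any kind and CCACG. The element was in the promoters of 16 of these genes (0.164%). Of the 16, 11 were called higher in lsPERK liver and 0 were called lower. All 11 belonged to the lists of ER genes described here, where the element was found in 11 of 104 members called higher that had a promoter (10.6%) and in 0 of 63 that were not. The windows below show it in genes of different ER functions, with the element in capitals and 20 bases on either side, 5′ to 3′ on the strand of the gene. Where the element runs against the gene, the capitals begin with CGTGG and end with ATTGG.

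Hspa5, chr2:34772005-34772063, plus strand: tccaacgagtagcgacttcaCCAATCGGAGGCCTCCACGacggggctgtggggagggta
Derl3, chr10:75893222-75893280, plus strand: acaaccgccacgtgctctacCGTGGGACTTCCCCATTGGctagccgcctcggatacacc
Syvn1, chr19:6046512-6046570, plus strand: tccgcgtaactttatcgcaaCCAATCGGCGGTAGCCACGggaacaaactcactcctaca
Creld2, chr15:88819500-88819558, plus strand: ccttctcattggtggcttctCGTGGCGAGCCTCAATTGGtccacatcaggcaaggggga
Dnajc3, chr14:118937807-118937865, plus strand: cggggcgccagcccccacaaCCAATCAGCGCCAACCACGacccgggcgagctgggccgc
Pdia6, chr12:17266471-17266529, plus strand: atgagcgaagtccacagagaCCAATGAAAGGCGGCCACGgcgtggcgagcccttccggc
Hsp90b1, chr10:86705513-86705571, minus strand: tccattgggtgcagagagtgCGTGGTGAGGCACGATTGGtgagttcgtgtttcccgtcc

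The Creld2 window is also that of Alg12, a mannosyltransferase of N-glycan assembly that lies head to head with it on the other strand, so both genes share that element. Alg12 rose by log2 1.47 (adjusted p = 0.000133). Hsp90b1 carried the element at another place in its promoter as well. The rises of the 11 genes with the element ran from Derl3 (log2 4.01) and Creld2 (3.40) to Calr (0.50) and Canx (0.33). A shorter form, ERSE-II (ATTGG, 1 base and CCACG), was in 8 promoters of all genes (0.0820%), 4 of them of genes called higher. The XBP1-type motif TGACGTGG was in 100 promoters (1.025%), with 7 among the 104 ER genes called higher (6.73%) and 4 among the 63 that were not (6.35%). Of the 100 genes with this motif, 26 (26%) were called higher in lsPERK liver and 4 lower, against 8.42% and 7.27% of all genes tested. A match describes the letters of this window only.

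Disulfide and prolyl isomerases had 13 of 24 genes called higher and none lower, with a median of log2 0.38 in lsPERK and 0.77 in WT liver. Fkbp11, an ER prolyl isomerase, rose 6.69-fold, from 237, 211 and 310 to 1585, 1677, 1837 and 1584 (log2 2.74, SE 0.17, adjusted p = 2.15e-07), and its WT change was log2 2.84. Ero1b and Pdia6, which form disulfide bonds, rose by log2 1.81 and 1.67. Pdia4 rose by log2 1.65 and Ero1a by 0.99, and both differed from the WT responses, by −1.43 (adjusted p = 0.0039) and −1.55 (adjusted p = 4.06e-05). Ero1a is known as a target of CHOP and Ero1b as a target of the IRE1 and ATF6 arms. The Ero1b response differed from that of WT liver by log2 −0.44 (adjusted p = 0.0442), a call lost after median centring (adjusted p = 0.294).

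Genes of ER-associated degradation, which returns misfolded proteins to the cytosol, had 18 of 36 members called higher and 1 lower. The list median was log2 0.37 in lsPERK and 0.87 in WT liver, and 15 members had a lower response than in WT liver by the test. Derl3, a channel component of this route, read 114, 63.4 and 71.6 in control and 1260, 1462, 890 and 1695 after tunicamycin, a 16.1-fold rise (log2 4.01, SE 0.25, adjusted p = 2.15e-07). WT treated arrays reached 5302 to 8389, and the difference of responses was log2 −2.36 (adjusted p = 0.00054). Syvn1, the ubiquitin ligase HRD1, read 931, 1114 and 1415 and then 6712, 7724, 7672 and 7006, a 6.39-fold rise (log2 2.68, adjusted p = 1.18e-07). Its adaptor Sel1l rose 2.26-fold (log2 1.17), Herpud1, which assembles the ligase complex, by log2 0.79 and the mannosidase-like Edem1 by 0.63. The Edem1 call was lost with the values as deposited (adjusted p = 0.0778). Sel1l and Edem1 differed from their WT responses by log2 −1.30 and −0.93, and Syvn1 by −0.72, which was not called after median centring (adjusted p = 0.119). The member called lower was the ubiquitin ligase gene Marchf6 (log2 −0.39), not called as deposited (adjusted p = 0.177) or after centring (0.197).

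Most genes of the machinery that brings new proteins into the ER rose. Of 22 genes for ER targeting, the translocon and the signal peptidase, 19 were called higher and none lower, with a median of log2 0.81 in lsPERK and 0.90 in WT liver, and the test of the difference called 1 above and 1 below. Srprb, a subunit of the receptor for signal recognition particle, read 555, 425 and 432 in control and 1823, 1907, 1697 and 1593 after tunicamycin (log2 1.91, SE 0.20, adjusted p = 2.02e-05). Srp19, a protein of that particle, rose by log2 1.22, the signal peptidase subunit Spcs2 by 1.14, Ssr3 of the translocon-associated complex by 0.87 and the channel subunit Sec61b by 0.82. None of these 5 differed from WT liver by the test, with differences between −0.20 and 0.02.

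Carriers between ER and Golgi moved in the same direction, with 30 of 43 genes called higher and none lower and a median of log2 0.62 in lsPERK and 0.92 in WT liver. Arfgap3, which acts on COPI vesicles, read 85.5, 137 and 256 in control and 718, 759, 829 and 776 after tunicamycin, a 5.34-fold rise (log2 2.42, SE 0.26, adjusted p = 3.22e-05). The cargo receptor Tmed3 rose by log2 1.90, the COPII coat subunit Sec23b by 1.60 and the tether Uso1 by 1.15.

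N-glycosylation and the hexosamine pathway that feeds it had 22 of 42 genes called higher and 1 lower, with a median of log2 0.47 in lsPERK and 0.33 in WT liver. The order of these medians depended on the scaling: they were 0.395 and 0.827 as deposited and 0.514 and 0.538 after median centring. Dpagt1, the enzyme that tunicamycin inhibits, read 954, 914 and 945 in control and 1763, 1875, 1703 and 1688 after tunicamycin. The groups were well apart, and the 1.87-fold rise (log2 0.91, SE 0.09, adjusted p = 1.19e-05) was close to the WT change of log2 0.79 (difference 0.11, adjusted p = 0.584). Gfpt1, which commits fructose 6-phosphate to hexosamine synthesis, rose 4.38-fold (log2 2.13), and its response differed from that of WT liver by log2 −1.29 (adjusted p = 0.00177). The member called lower was the mannosyltransferase gene Alg1 (log2 −0.63), not called as deposited (adjusted p = 0.0732). Gmppb, which makes GDP-mannose and was not on the list, rose 5.84-fold (log2 2.55), and Ostc, a subunit of the oligosaccharyltransferase, rose by log2 1.29.

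**Figure D2:**
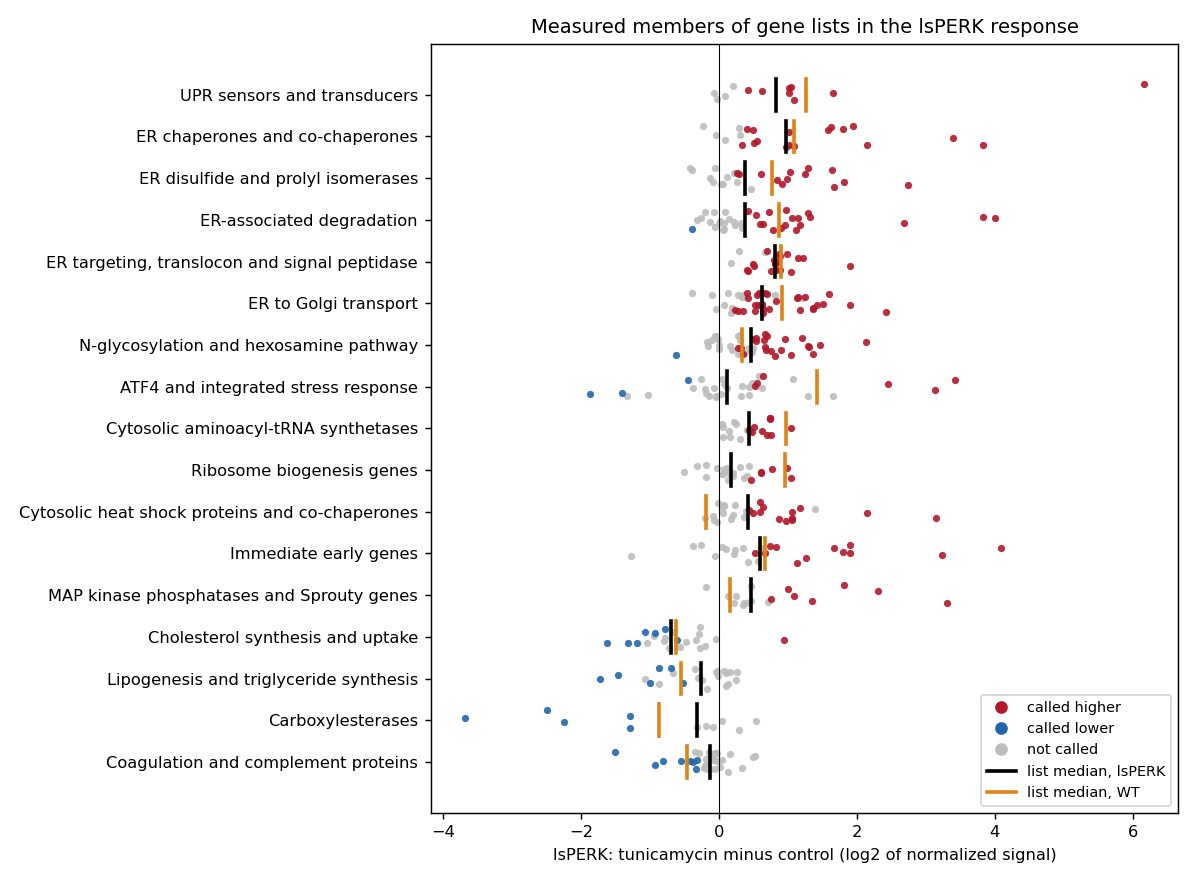
Log2 change after tunicamycin in lsPERK liver for each measured member of 17 gene lists, 1 point per gene, with the list median in lsPERK (black bar) and in WT liver (orange bar). The 7 ER lists have medians above 0 in both genotypes, the integrated stress response has medians of 0.12 and 1.43, and the heat shock list has medians of 0.42 and −0.19, the latter 0.20 as deposited.

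The ATF4 arm lies downstream of PERK. Of 33 genes of the integrated stress response, 6 were called higher and 3 lower in lsPERK liver, against 25 higher and 1 lower in WT liver, and the medians were log2 0.12 and 1.43. The lsPERK shares were 18.2% and 9.09%, against 8.42% and 7.27% of all genes tested. The test of the difference called 22 of the 33 lower in lsPERK liver and none higher. With the replicate block within genotype, 3 members were called higher and 1 lower, and as deposited 3 higher and 2 lower. Atf4 mRNA read 2470, 4016 and 2012 in control and 3141, 3204, 2400 and 2717 after tunicamycin, with overlapping groups and a log2 change of 0.07 (SE 0.18, adjusted p = 0.851).

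Part of this arm still rose. Ddit3, which encodes CHOP, read 273, 211 and 218 in control and 1425, 1499, 1065 and 1140 after tunicamycin, a 5.45-fold rise (log2 2.45, SE 0.15, adjusted p = 2.15e-07). WT treated arrays read 15150 to 16845, and the difference of responses was log2 −3.67 (adjusted p = 3.39e-07). Atf3, a stress-induced repressor, read 94.8, 133 and 37.2 and then 1137, 787, 420 and 565, an 8.74-fold rise (log2 3.13, SE 0.41, adjusted p = 0.000146). The Atf3 response differed from that of WT liver by log2 −4.54. Both genes rose on every treated array beyond every control array.

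Ppp1r15a, which encodes the eIF2 phosphatase subunit GADD34, rose 1.56-fold (log2 0.64, adjusted p = 0.00335), against log2 3.39 in WT liver. Its call was lost with the replicate block within genotype (adjusted p = 0.0617) and with the values as deposited (adjusted p = 0.0960). Psat1 of serine synthesis rose at least 2.37-fold, with its control mean below the filter threshold, and lost its call when only the lsPERK arrays were fitted. The difference from the WT response was called (adjusted p = 0.0406), with no size given because controls of both genotypes lay below the threshold. The serine synthesis gene Psph (log2 0.56) and Tbl2, which encodes a PERK-binding protein (0.53), also rose, and both calls were lost with the block (adjusted p = 0.126 and 0.114) and as deposited (0.160 and 0.262).

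Other textbook ATF4 targets were not called in lsPERK liver. The pseudokinase gene Trib3 changed by log2 0.63 (adjusted p = 0.159), against 5.99 in WT liver. The glutathione-degrading Chac1 changed by log2 −1.33 (adjusted p = 0.107), against 3.42. The asparagine synthetase gene Asns changed by log2 1.66 (SE 0.86, adjusted p = 0.229), against 3.25, and here the difference was not called (adjusted p = 0.412). The hormone gene Fgf21 changed by log2 1.07 (adjusted p = 0.151), against 5.23. Nupr1, a stress-induced chromatin protein, read 40.5, 37.3 and 11 in control and 83.6, 98.0, 35.5 and 51.7 after tunicamycin (adjusted p = 0.197), while WT treated arrays read 3473 to 7381. The groups of Nupr1 overlapped in lsPERK liver. Its control means lay below the filter threshold in both genotypes, so no size is given for the called difference (adjusted p = 4.14e-05). Another kept probe set of Nupr1 was called higher in lsPERK liver (adjusted p = 0.00171 over all kept probe sets), from a control mean also below the threshold.

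The 3 genes called lower were the lipoprotein receptor gene Vldlr (log2 −1.41), the translational repressor gene Eif4ebp1 (−0.46) and the amino acid transporter gene Slc7a5, which fell at least 1.46-fold to a treated mean below the filter threshold. Vldlr missed the threshold without lsPERK control replicate 2 (log2 −1.20, adjusted p = 0.0590). Slc7a5 missed it without any of lsPERK control replicates 1 and 2 and tunicamycin replicates 1, 2 and 4 (adjusted p 0.0549 to 0.0644). Eif4ebp1 missed it with the block (adjusted p = 0.0801), with the values as deposited (0.174), after median centring (0.207) and with the mean of its probe sets (0.405). Of its 3 kept probe sets only the one used was called, and the others read log2 −0.32 and 0.31.

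ATF4 binds the C/EBP-ATF response element as a dimer with a C/EBP factor. Its letters (TGATG, any base, AA, and then A, C or T, on both strands) stood in 207 promoters of all genes (2.12%), in 8 of 29 promoters of the list (27.6%) and in 0 of 6 promoters of the list members called higher in lsPERK liver. Of the 207 genes with it, 17 (8.21%) were called higher in lsPERK liver and 10 lower, against 8.42% and 7.27% of all genes tested. Herpud1 (log2 0.79) and Insig2 (0.94), both called higher in lsPERK liver, hold it too, as does Vldlr, called lower. The element is shown here in capitals with 20 bases on either side. The 3 genes shown were chosen as called higher in WT liver and not called in lsPERK liver by the probe set used. Windows read 5′ to 3′ on the strand of the gene, on GRCm38.p6 from RefSeq, and in each the element runs against the gene.

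Chac1, chr2:119351028-119351076, plus strand: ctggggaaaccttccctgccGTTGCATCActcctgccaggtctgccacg
Nupr1, chr7:126625553-126625601, minus strand: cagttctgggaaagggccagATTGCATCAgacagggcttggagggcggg
Fgf21, chr7:45615602-45615650, minus strand: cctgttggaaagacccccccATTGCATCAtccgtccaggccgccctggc

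Cytosolic aminoacyl-tRNA synthetases, which charge tRNAs with amino acids and are ATF4 targets in part, rose for some members. Of 19 genes, 10 were called higher and none lower, with a median of log2 0.44 in lsPERK and 0.98 in WT liver, and 10 had a lower response than in WT liver. The block within genotype left 6 of them called. Nars rose by log2 0.75 (adjusted p = 1.24e-05) and Rars also by 0.75 (adjusted p = 0.000583), the latter with a difference from WT liver of −0.83. Cars rose by log2 1.05 (adjusted p = 0.000751) while its WT change of 0.18 was not called, but was called as deposited (0.75) and after centring (0.46). The difference of 0.87 (adjusted p = 0.0198) was not called as deposited (adjusted p = 0.581) or after centring (0.0664). Wars rose by log2 0.74, against 2.28 in WT liver, and lost its call with the block (adjusted p = 0.0519) and as deposited (0.0549).

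Ribosome biogenesis genes had 6 of 24 members called higher and none lower, and a median of log2 0.18 against 0.95 in WT liver, where 21 were called higher. Nop58 of the nucleolar methylation complex read 356, 237 and 309 in control and 583, 581, 600 and 689 after tunicamycin (log2 1.04, SE 0.18, adjusted p = 0.00114), and Ppan rose by log2 0.99. The responses of Nop58 and Ppan differed from those of WT liver by log2 −1.67 and −1.52.

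Some genes of cytosolic heat shock proteins, which fold proteins outside the ER, rose in lsPERK liver. Of 28 genes, 13 were called higher and none lower in lsPERK liver, against 6 higher and 8 lower in WT liver, and the medians were log2 0.42 and −0.19. The test of the difference called 16 genes above and 2 below, 12 and 1 after median centring, and 5 and 4 as deposited. The lsPERK median stayed above 0 as deposited (0.44) and after centring (0.56), while the WT median was 0.20 as deposited and −0.09 after centring. Hspa1b, an inducible HSP70, read 1280, 1719 and 1668 in control and 6658, 3502, 11747 and 8078 after tunicamycin, a 4.45-fold rise (log2 2.15, SE 0.37, adjusted p = 0.00147). The treated arrays spread over a wide range, all above the controls. In WT liver it fell from 1048, 3248 and 2358 to 306, 382, 378 and 389, and the difference of responses was log2 4.62 (adjusted p = 9.27e-05). Hspa1a, a near-identical paralogue whose signal the probes may share, rose by log2 3.15 (adjusted p = 0.00757).

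The rest of the HSP70 system moved by smaller steps. The constitutive Hspa8 rose from 12037, 12297 and 10650 to 18401, 16408, 17644 and 17694 (log2 0.59, adjusted p = 0.000781). The HSP70 exchange factors Hspa4l and Hsph1 rose by log2 1.18 and 1.05, and the J-domain co-chaperones Dnajb4 and Dnaja1 by 1.06 and 0.65. In WT liver Hspa4l fell by log2 0.77, a call lost as deposited (log2 −0.27, adjusted p = 0.352), and the other 4 were not called, with changes between −0.28 and 0.07. The responses were larger in lsPERK liver by log2 1.95 for Hspa4l, 1.34 for Dnajb4, 0.98 for Hsph1, 0.64 for Dnaja1 and 0.55 for Hspa8, and the last 3 lost that call with the values as deposited. For Dnajb4, 1 of 3 kept probe sets read log2 −0.92 and was not called.

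Immediate early genes, which are transcribed within minutes of a signal, had 12 of 24 members called higher and none lower, with medians of log2 0.59 in lsPERK and 0.66 in WT liver. As deposited these medians were 0.49 and 1.11, and after median centring 0.61 and 0.84. Egr1, a zinc finger transcription factor, read 255, 762 and 519 in lsPERK control and 7871, 9972, 6494 and 7627 after tunicamycin, a 17.0-fold rise (log2 4.08, SE 0.30, adjusted p = 1.08e-06). In WT liver it read 1227, 936 and 1324 and then 2043, 1808, 1212 and 1218, a change of log2 0.41 that was not called, but that was called as deposited (log2 0.92, adjusted p = 0.0435). The difference of responses was log2 3.67 (adjusted p = 0.000107). The lsPERK controls lay below all WT controls.

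Fos, a subunit of AP-1, read 102, 381 and 70.6 in lsPERK control and 1717, 1072, 1054 and 1529 after tunicamycin, a 9.37-fold rise (log2 3.23, SE 0.43, adjusted p = 0.000181). Its WT change was log2 0.28, and the difference was 2.95 (adjusted p = 0.00422). Control replicate 2 was the highest lsPERK control for Fos as for Egr1. Jun, the partner of Fos, rose by log2 1.90 (adjusted p = 0.00367), with a difference from WT liver of −1.85, and Ier2 rose by 1.13 (adjusted p = 0.00793), with a WT change of −0.12. Maff and Btg2 rose by log2 1.80 and 1.90.

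MAP kinase phosphatases and Sprouty genes, which switch off ERK, JNK and p38 signalling, had 7 of 17 members called higher and none lower. The medians were log2 0.47 in lsPERK and 0.15 in WT liver, and 0.34 and 0.62 as deposited. Dusp6, an ERK phosphatase, read 1397, 1606 and 521 in control and 5686, 4682, 5609 and 4889 after tunicamycin, a 4.93-fold rise (log2 2.30, SE 0.30, adjusted p = 0.000156). In WT liver its change was log2 0.11, and the difference was 2.20 (adjusted p = 0.00311). Dusp8, a JNK and p38 phosphatase, rose by at least 4.29-fold from a control level under the filter threshold (adjusted p = 1.26e-06). The difference from the WT response was called (adjusted p = 0.000237), with no size given because the WT controls lay below the threshold too. Of its 3 kept probe sets, 2 were called. Dusp1 rose by log2 1.09 (adjusted p = 0.00541).

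Growth arrest and cell death genes moved both ways. Of 19 p53 targets and growth arrest genes, 3 were called higher (15.8%) and 4 lower (21.1%), against 8.42% and 7.27% of all genes tested. In a list this small these shares rest on few genes. Trp53inp1, a p53-induced nuclear protein, read 2237, 2455 and 1690 in control and 9510, 7531, 9600 and 10043 after tunicamycin, a 4.34-fold rise (log2 2.12, adjusted p = 2.83e-07), with a WT change of log2 2.07. Gadd45a rose 2.70-fold (log2 1.44), against log2 5.10 in WT liver (adjusted p of the difference 3.39e-07). Cdkn1a, the cell cycle inhibitor p21, read 87.8, 61.6 and 51.2 and then 350, 723, 63.1 and 158, and did not pass the test with this probe set (log2 1.78, adjusted p = 0.0542). Its other kept probe set, with a control mean below the filter threshold, was called higher (adjusted p = 0.00791 over all kept probe sets). Its treated arrays reached from within the control range to many times above it.

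Of 15 BCL2 family genes, 1 was called higher (6.67%) and 3 lower (20%), against 8.42% and 7.27% of all genes tested. Bcl2l1, which encodes the death-preventing BCL-XL, read 267, 253 and 352 in control and 596, 910, 797 and 895 after tunicamycin, a 2.74-fold rise (log2 1.46, adjusted p = 0.0025). The death-promoting genes Bmf and Bbc3 fell, Bmf from 147, 587 and 271 to 52.2, 54.8, 27.3 and 50.7 (log2 −2.68, adjusted p = 0.00113) and Bbc3 by log2 1.22 (adjusted p = 0.0016).

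**Figure D3:**
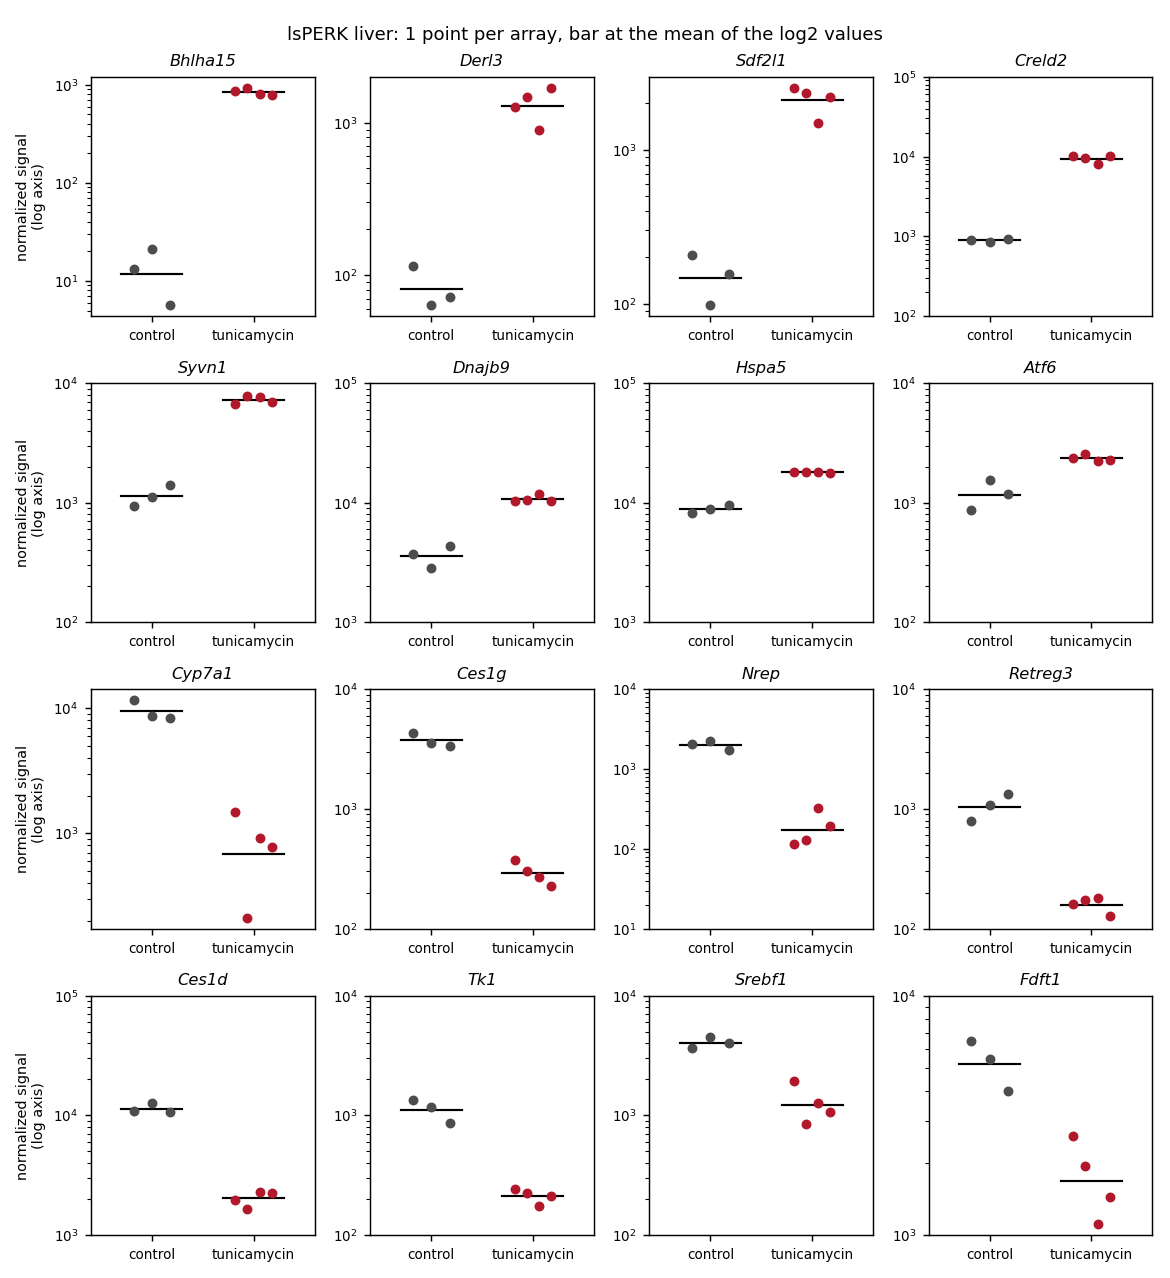
Normalized signal on a log axis for each lsPERK array, control (grey, 3 arrays) and tunicamycin (red, 4 arrays), with bars at the mean of the log2 values, for 8 genes that rose and 8 that fell. In none of the 16 panels do the groups overlap, and Cyp7a1 has its lowest treated array at 211. The groups also did not overlap for 987 of the 1018 genes called higher and 841 of the 879 called lower.

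Genes of liver metabolism were among those that fell. Cyp7a1 encodes the hydroxylase that starts and limits the conversion of cholesterol to bile acids. It read 11599, 8748 and 8415 in control and 1481, 211, 917 and 776 after tunicamycin, a 13.8-fold fall (log2 −3.79, SE 0.52, adjusted p = 0.000221). The highest treated array was still far under the lowest control array. The WT change was log2 −2.37, and the difference did not pass the test (adjusted p = 0.202). Nr0b2, chosen after its values were seen, encodes SHP, a repressor of Cyp7a1. It read 732, 718 and 375 in control and 1794, 1667, 1806 and 2050 after tunicamycin, a 3.14-fold rise (log2 1.65, adjusted p = 0.0107) that lost its call with the replicate block within genotype (adjusted p = 0.0587). In WT liver it fell from 939, 1560 and 1787 to 179, 59.1, 241 and 137, and the difference of responses was log2 4.98 (adjusted p = 7.07e-05). The bile acid list as a whole had 2 of 25 genes called higher (8%) and 4 lower (16%), against 8.42% and 7.27% of all genes tested.

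Cholesterol synthesis and uptake genes had 7 of 22 members called lower (31.8%) and 1 higher (4.55%), against 7.27% and 8.42% of all genes tested. The list medians were log2 −0.69 in lsPERK and −0.62 in WT liver. With the block within genotype, as deposited or after centring, 4 members were called lower. Fdft1, which makes squalene, read 6466, 5414 and 3992 in control and 2599, 1942, 1112 and 1434 after tunicamycin, a 3.08-fold fall (log2 −1.62, SE 0.26, adjusted p = 0.000819). Msmo1, a sterol oxidase, fell by log2 1.32 and Insig1, an SREBP target that retains SREBP in the ER, by 1.08. Insig2, the related retention factor, was the member called higher, from 3636, 2163 and 2731 to 5659, 6796, 4892 and 4350 (log2 0.94, adjusted p = 0.00199).

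Lipogenesis genes had 6 of 24 members called lower (25%, against 7.27% of all genes tested) and none higher. With the block within genotype 3 were called lower. Srebf1, the transcription factor of this pathway, read 3652, 4515 and 4014 in control and 1930, 839, 1271 and 1069 after tunicamycin, a 3.32-fold fall (log2 −1.73, SE 0.29, adjusted p = 0.00109). Dgat2, which makes the last step of triglyceride synthesis, fell by log2 0.87 (adjusted p = 4.79e-06), while its WT change of −0.01 was not called and the difference was called (−0.86, adjusted p = 0.000164). Fatty acid oxidation genes had 2 of 29 members called lower in lsPERK liver (6.90%) and 26 in WT liver, with medians of log2 0.05 and −0.51. Subunits of oxidative phosphorylation had 2 of 46 called lower in lsPERK (4.35%) and 33 in WT liver. Of all genes tested, 7.27% were called lower in lsPERK and 26% in WT liver. The lsPERK counts of both lists were thus near or below the share of all genes. The test of the difference called 18 and 20 members of these lists above and none below, but as deposited 4 and 0, with WT falls of 8 and 1 and no lsPERK fall in either list. Ppara, the fatty acid oxidation regulator, changed by log2 −0.45 (adjusted p = 0.255), against −1.97 in WT liver (adjusted p of the difference 0.00733). The other 2 kept probe sets of Ppara were called lower in lsPERK liver (log2 −0.89 and −0.78, adjusted p = 0.0027 and 0.00777 over all kept probe sets).

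Carboxylesterases, liver enzymes that hydrolyse drugs and lipids, had 5 of 11 members called lower and none higher, also with the block. All 5 were of the Ces1 cluster, whose sequences are close enough that probes may be shared. Ces1g read 4339, 3581 and 3368 in control and 375, 304, 271 and 228 after tunicamycin, a 12.9-fold fall (log2 −3.69, SE 0.20, adjusted p = 1.18e-07) that was close to the WT change of −3.52. Ces1d fell 5.62-fold (log2 −2.49) and Ces1c 2.45-fold (log2 −1.29). Ces1d has also been reported as an mRNA that IRE1 cuts. Of 17 such reported decay targets, 5 were called lower (29.4%) and 4 higher (23.5%), against 7.27% and 8.42% of all genes tested. Those lower included the lysosomal acetyltransferase gene Hgsnat (log2 −1.31), the kinase gene Pdk2 (−1.10) and the peptide-loading factor gene Tapbp (−1.03), with WT changes of −1.41, −1.22 and −1.19. Among those higher were Pdia4 and Ern1, which belong to the ER lists above.

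Coagulation and complement genes, whose products the liver secretes, had 8 of 34 members called lower (23.5%, against 7.27% of all genes tested) and none higher. With the block within genotype or as deposited 3 were called lower, and after centring 2. In WT liver 24 were called lower, 8 as deposited, and the medians were log2 −0.13 and −0.47. Hc, complement C5, read 5614, 7531 and 7374 in control and 2206, 1995, 3048 and 2420 after tunicamycin, a 2.84-fold fall (log2 −1.51, adjusted p = 0.000207), and F7, coagulation factor VII, fell 1.90-fold (log2 −0.93, adjusted p = 4.98e-05). Of 34 cytochrome P450 genes of families 1 to 4, none was called by limma in either direction, and 2 had an unadjusted p under 0.05. Cebpa, a transcription factor of hepatocytes, fell 2.35-fold (log2 −1.23, adjusted p = 0.000245). Igfbp1, which binds insulin-like growth factors, rose 9.18-fold (log2 3.20, adjusted p = 9.72e-06), with a WT change of 2.83. Of 18 clock genes, 4 were called lower (22.2%) and 1 higher (5.56%), against 7.27% and 8.42% of all genes tested. With the block 2 were called lower and none higher. Per3 and Dbp fell by log2 1.31 and 1.74, with the time of day not given. The 6 kept probe sets of Per3 ranged from log2 −1.31 to 0.09, with 2 called.

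The genes whose confidence limits lay farthest from 0 also included some outside the lists. Zfp9, a zinc finger gene, read 42.4, 43.6 and 59.7 in control and 634, 429, 424 and 514 after tunicamycin, a 10.3-fold rise (log2 3.36, SE 0.21, adjusted p = 2.49e-07), with a WT change of log2 3.99. Nucb2, which encodes a calcium-binding protein of the secretory pathway, rose 6.75-fold (log2 2.76), with a difference from WT liver of −2.38. Slc17a9, the vesicular nucleotide transporter, rose 6.19-fold (log2 2.63), with a WT change of 2.73. None of the treated arrays of these genes overlapped the controls.

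Among the falls chosen the same way, Nrep read 2054, 2256 and 1757 in control and 115, 128, 323 and 195 after tunicamycin, an 11.5-fold fall (log2 −3.53, SE 0.43, adjusted p = 9.42e-05), against log2 −3.78 in WT liver. Retreg3, an ER membrane protein of the reticulon-like ER-phagy receptor family, read 793, 1078 and 1321 and then 160, 173, 181 and 126 (log2 −2.72, adjusted p = 2.49e-07), against −2.66. The log2 changes of Limd2 and Hykk were −2.54 and −2.04, and in WT liver −2.57 and −2.01, while Dpp7 fell 3.996-fold, with a WT log2 change of −2.11. Tk1, a nucleotide salvage enzyme of dividing cells, fell 5.23-fold (log2 −2.39). Tmem238 fell by log2 2.69 (adjusted p = 1.89e-07), with a difference from WT liver of −0.96 (adjusted p = 0.00856). Gm2788 fell 4.78-fold, and Mrnip and Dio3os, whose treated levels were under the filter threshold, fell at least 2.01-fold and 2.35-fold.

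The genes with the largest lsPERK changes that were opposed to or not called in WT liver, each with a called difference, included Egr1, Fos and Hspa1a as above. Parp16, an ER-anchored ADP-ribosyltransferase reported to modify PERK and IRE1, read 767, 1130 and 1625 in control and 6130, 6196, 8764 and 3884 after tunicamycin. The groups did not overlap, and the rise was 5.35-fold (log2 2.42, SE 0.35, adjusted p = 0.000327). In WT liver the change was log2 0.36 and not called, although as deposited it was called (log2 0.86, adjusted p = 0.0454). The difference was 2.06 (adjusted p = 0.00963). Its lsPERK call was lost on the arrays without Xist (adjusted p = 0.0669). Ptgfr, a prostaglandin receptor gene, and Hapln1 passed the filter only through the treated lsPERK arrays, so their calls are no support. Their treated means were at least 2.47-fold and 1.31-fold above their controls. The other 4 were near or below the threshold: Sh3tc1 and Chrna6 rose by at least 1.29-fold and 1.01-fold, Zbed5 fell by at least 1.15-fold, and Ctrl is given no fold. Sh3tc1 would not have passed the filter without the treated lsPERK arrays, so its call is no support either. Hapln1, Chrna6 and Ctrl lost their calls with the block (adjusted p 0.0703 to 0.0918).

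**Figure D4:**
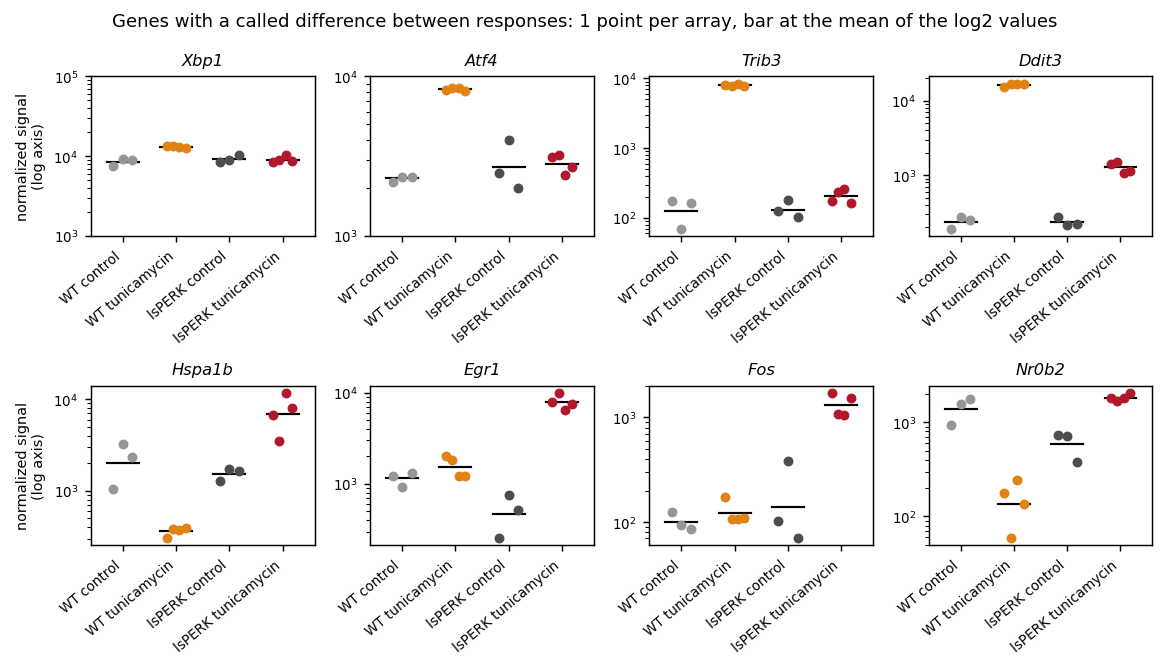
Normalized signal on a log axis for each array of the 4 groups, WT control (light grey, 3 arrays), WT tunicamycin (orange, 4), lsPERK control (dark grey, 3) and lsPERK tunicamycin (red, 4), with bars at the mean of the log2 values. Xbp1, Atf4 and Trib3 separate by treatment in WT liver and overlap in lsPERK liver, Ddit3 rises in both, Hspa1b and Nr0b2 move in opposite directions, and Egr1 and Fos rise in lsPERK liver.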

How the data were processed

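Labelled RNA of 14 mouse liver samples was hybridised to Affymetrix arrays, and the authors deposited linear intensity values, made with MAS5 in GCOS per the submitters' processing notes. For the versions and the scaling, the sources used here give nothing, and the scaling moves the comparison with WT liver. The 45101 probe sets lost 64 controls, and log2 values were quantile normalized over the 14 arrays. Probe sets above the pooled median (signal 41.5) on at least 3 arrays were kept, with the brightest of each gene, for 12085 genes. Of all probe sets, 34945 had 1 gene, 932 several and 9160 none in the platform table. limma 3.58.1 in R 4.3.3 fitted 4 group means with a trend on intensity (10 residual degrees of freedom), and Benjamini-Hochberg adjustment covered all genes, with a threshold of 0.05. It was tested on simulated data. Where a group mean lay below the threshold signal, the fold was computed against that signal and is a lower bound. Deviations from the group mean correlated at 0.27, 0.24 and 0.35 between lsPERK arrays of the same replicate number, and at −0.25, −0.37 and 0.16 in WT liver. Some lsPERK arrays of different numbers correlated about as well. Control 3 with tunicamycin 4 gave 0.35, control 2 with tunicamycin 1 gave 0.23 and control 1 with tunicamycin 2 gave 0.19. The positive values were those of lsPERK arrays alike in Xist, so a pairing by number was not shown. Named genes are those farthest from 0 by confidence limit, leading called list members, a fixed set and the largest changes opposed to or not called in WT liver. Dnajc3, Calr, Canx, Alg12, Nupr1, Mbtps1, Marchf6, Alg1, Tbl2 and Nr0b2 were named after their values were seen. The members and lists were chosen with earlier results of these data known. The number of arrays limits the precision.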

Additional observations from a re-analysis of the deposited data

Results flagged for a closer look

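In 6 of the 131 genes named in the text, 1 lsPERK tunicamycin array lay far from the other 3, by the gap to its nearest neighbour over the range of the group (past the 95% critical value of Dixon, which chance passes in about 5% of groups). This was replicate 3 for Dnajb9 (0.89), Bmf (0.89), Slc7a5 (0.86), Cebpa (0.858) and Psph (0.845), and replicate 1 for Insig1 (0.839).

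The test of the difference between the lsPERK and WT responses passed for 68 of the genes named. Values are the log2 response in lsPERK minus that in WT liver. Among genes with every group mean above the filter threshold, the response was higher in lsPERK liver for Nr0b2 (4.98), Hspa1b (4.62), Hspa1a (4.62), Egr1 (3.67), Fos (2.95), Dusp6 (2.2), Parp16 (2.06), Hspa4l (1.95), Ppara (1.52), Dnajb4 (1.34), Ier2 (1.25), Ces1d (1.09), Hsph1 (0.98), Cars (0.87), Dnaja1 (0.64), Hspa8 (0.55) and F7 (0.54). For Hspa1a the lsPERK control and WT treated arrays lay near that threshold, so its size is uncertain. The widest differences below WT liver were those of Trib3 (−5.36), Chac1 (−4.75), Atf3 (−4.54), Fgf21 (−4.16), Ddit3 (−3.67), Gadd45a (−3.66) and Cdkn1a (−3.47). Smaller ones were those of Ppp1r15a (−2.75), Nucb2 (−2.38), Derl3 (−2.36), Jun (−1.85), Vldlr (−1.82), Atf4 (−1.79), Nop58 (−1.67), Ero1a (−1.55), Sdf2l1 (−1.54), Wars (−1.54), Ppan (−1.52), Eif2ak3 (−1.48), Pdia4 (−1.43), Sel1l (−1.3) and Gfpt1 (−1.29). The narrowest were those of Eif4ebp1 (−1.18), Bbc3 (−1.09), Tmem238 (−0.96), Creld2 (−0.93), Edem1 (−0.93), Dnajb11 (−0.9), Ces1c (−0.9), Psph (−0.87), Dgat2 (−0.86), Rars (−0.83), Syvn1 (−0.72), Manf (−0.71), Dnajc3 (−0.7), Ern1 (−0.68), Xbp1 (−0.66), Alg1 (−0.6), Marchf6 (−0.54), Hsp90b1 (−0.53) and Ero1b (−0.44).

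The other 10 genes had a group mean below the filter threshold, so their fitted values rest on signal near background and give no size or order: Chrna6 (3.36), Ctrl (−4.68), Dusp8 (−2.71), Hapln1 (5.18), Nupr1 (−8.73), Psat1 (−3.84), Ptgfr (4.07), Sh3tc1 (2.75), Slc7a5 (−3.09) and Zbed5 (−2.96). Ptgfr and Hapln1 passed the filter only through the treated lsPERK arrays, and Sh3tc1 would not have passed it without them.

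Of all of these genes, Cars, Ces1d, Chrna6, Dnaja1, F7, Hspa8, Hsph1 and Ier2 lost the call with the values as deposited. Cars, Ces1c, Dnajc3, Ero1b, F7, Hsp90b1, Manf, Marchf6, Syvn1 and Xbp1 lost it after median centring.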

How the results depend on the processing

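Of the 1897 lsPERK calls, values as deposited left 695 (915 with every probe set), each replicate number as a block within genotype 976, the arrays with Xist 1030 and those without it 720, and a 2-fold minimum 492. Testing every kept probe set gave 3152. Leaving out 1 array gave 1124 (without lsPERK control replicate 2) to 2056. The planned replicate block across genotypes gave 1666. The WT response gave 10253 calls over every kept probe set, 3075 on the arrays with Xist and 2052 at 2-fold. The difference gave 3711, 689 on the arrays with Xist, 1218 on those without, 1354 with the block within genotype and 977 at 2-fold. Of the lsPERK calls, 74.28% were shared with WT liver in direction, 64.66% on the arrays with Xist and 66.87% at 2-fold. The cause of these moves was not tested, beyond the fewer arrays or other number of features that some settings fit. The settings by Xist, the block within genotype, every probe set as deposited and a filter on lsPERK arrays were chosen after seeing the data, and a lone array of a group is assumed there to vary like the other groups.

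Of 182 named genes called in lsPERK liver, none reversed. Many were named because of these calls, and each setting fits the same arrays or a part of them, so this is no support for the calls. As deposited 144 kept the call, after median centring 166, with the block within genotype 150, and without lsPERK control replicate 2, 161. On the arrays without Xist 130 of 180 kept it. The share of ER genes called higher that hold the ER stress element stayed at 10.6% in the 250 bases before the start. Genes near the filter threshold are limited by their signal over background.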
